A study of Mus musculus with 2 samples.

Results

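A set of 46 genes induced by type I interferon was followed in CD8+ T cells from MC38 tumours, from which a control library and a library labelled as depleted of natural killer (NK) cells were made. They are the interferon-stimulated genes left once the Ifit, Ifitm, Ifi200 and GTPase families are set aside, and they were chosen by symbol from a list of 46 names. The deposited tables hold 45 of these among 32285 genes; no value is given for Mx1, which was not analysed here. Levels were read in barcodes with at least 500 detected genes, a mitochondrial share of counts under 10%, at least 1 count of Cd3d, Cd3e or Cd3g and at least 1 of Cd8a or Cd8b1.

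Type I interferons bind a receptor made of Ifnar1 and Ifnar2, whose kinases Jak1 and Tyk2 signal through Stat2 among others. Stat2 and Irf9 are parts of the complex ISGF3, which binds interferon-stimulated response elements in the promoters of its target genes. The targets include sensors of foreign RNA, enzymes that block viral replication, the ubiquitin-like protein Isg15 and, as a brake, Usp18. In T cells inside tumours, such genes are commonly read as a record of recent interferon exposure.

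Both groups were wild-type mice (genotype WT) carrying MC38, an established mouse colon carcinoma line, and tumours were taken at day 9. The control carries the treatment label PBS and the library name CD8Iso, and the labels do not say which injection was given; the other group received a-NK1.1 antibody, which is used to deplete cells bearing NK1.1, and its library is called NK-depleted here after that label. Live CD8+ cells were sorted, and RNA was counted with 10x Genomics 5' chemistry as unique molecular identifiers (UMIs), each standing for 1 captured molecule. Each group is 1 library with no number of mice stated, so there is no replicate check, no p-value, and every interval below covers counting error only. The treatment cannot be told apart from anything else that differed between the libraries. Klrb1c, the gene for NK1.1, stood at 3.70 CPM (control) and 5.13 CPM (NK-depleted), where CPM are UMIs per 1000000 UMIs of the population described next. With a ratio of 1.39 (1.22 to 1.58), it was not lower under the antibody in these cells. Ncr1, an NK cell receptor gene, had 18 and 3 UMIs, and the 3 NK markers summed to 6.45 and 6.53 CPM. Sorted CD8+ cells do not show whether NK cells were absent from the tumours.

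The population held 6901 control cells (96.3% of those that passed the gene and mitochondrial filters) with 106462391 UMIs and 8164 NK-depleted cells (97.7%) with 125332343 UMIs. Median depth was 11444 and 12289.5 UMIs per cell. The libraries shared 391 barcodes, of which 26 lay in both populations. Markers of plasmacytoid dendritic cells, which are known as producers of type I interferon, summed to 71.1 CPM (control) and 30.1 CPM (NK-depleted), and a further dendritic cell list to 64.5 and 43.1 CPM. All 5 and all 6 markers of these lists had UMIs in both libraries. Lists for other cell types summed to at most 21.0 CPM in either library. Cells with a UMI of Siglech, Klk1 or Cox6a2, the plasmacytoid markers used for this, numbered 95 in the control and 71 in the NK-depleted population. A cluster led by Siglech and Ly6d, described later, held 143 control and 161 NK-depleted cells.

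The promoters show the letters through which these genes are thought to be read. Of the 46 names, 37 had a promoter window in RefSeq (build GRCm38.p6), running from 250 bases before to 50 bases after an annotated start. The response element core was searched as GAAANNGAAA or its reverse complement TTTCNNTTTC, so both strands were covered, and overlapping matches were counted separately. It was found for 15 of the 37 genes (40.5%), against 3.99% of 27025 genes with a window and 4.43% of the 5958 of them that reached 10 CPM here. Isg15 held 3 overlapping matches, the first starting at position -78 from the start and the last at -66. Rsad2 held 1 match, at -120, and the windows of Irf7 and Slfn2 held none. These 4 windows are shown whole because their genes were named in the plan, together with Usp18, which had no window. Matched letters are in capitals, and each window is written 5′ to 3′ on the gene's strand:
Isg15, chr4:156200769-156201068, minus strand: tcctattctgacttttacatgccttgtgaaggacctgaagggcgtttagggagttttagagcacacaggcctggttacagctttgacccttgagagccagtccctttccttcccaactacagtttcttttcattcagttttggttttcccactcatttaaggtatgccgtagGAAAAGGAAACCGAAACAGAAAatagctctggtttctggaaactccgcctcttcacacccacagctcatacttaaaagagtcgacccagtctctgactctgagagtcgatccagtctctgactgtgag
Rsad2, chr12:26456403-26456702, minus strand: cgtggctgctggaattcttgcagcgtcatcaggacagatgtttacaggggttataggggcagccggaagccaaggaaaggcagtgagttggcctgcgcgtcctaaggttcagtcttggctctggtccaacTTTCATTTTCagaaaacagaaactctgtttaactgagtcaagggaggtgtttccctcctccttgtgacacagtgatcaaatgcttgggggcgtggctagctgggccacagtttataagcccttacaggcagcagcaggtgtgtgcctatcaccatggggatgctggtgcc
Irf7, chr7:141266375-141266674, minus strand: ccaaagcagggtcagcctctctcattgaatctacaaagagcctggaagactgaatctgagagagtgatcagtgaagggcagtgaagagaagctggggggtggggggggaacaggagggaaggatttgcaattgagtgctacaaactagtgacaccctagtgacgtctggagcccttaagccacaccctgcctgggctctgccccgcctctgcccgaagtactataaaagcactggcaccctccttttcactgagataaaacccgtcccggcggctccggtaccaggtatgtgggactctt
Slfn2, chr11:83064862-83065161, plus strand: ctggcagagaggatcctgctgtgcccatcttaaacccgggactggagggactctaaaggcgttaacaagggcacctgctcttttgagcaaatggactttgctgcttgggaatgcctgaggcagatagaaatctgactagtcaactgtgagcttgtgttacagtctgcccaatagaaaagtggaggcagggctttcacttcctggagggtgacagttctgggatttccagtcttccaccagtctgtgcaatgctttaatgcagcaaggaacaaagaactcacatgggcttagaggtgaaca

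Among the members that departed most from the rest in the comparison below, 3 had a match, and only the bases around it are shown. In Ifih1 the match starts at 32, inside the transcribed part, in Slfn5 at -155, and in Apol9b the first of 2 overlapping matches starts at -37. The Apol9a and Apol9b windows were identical over 278 of 278 aligned bases, so reads of this pair may be split between them and their values are uncertain:
Ifih1, chr2:62646206-62646238, minus strand: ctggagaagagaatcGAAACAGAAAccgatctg
Slfn5, chr11:82951932-82951971, plus strand: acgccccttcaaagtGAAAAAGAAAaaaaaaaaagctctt
Apol9b, chr15:77729020-77729065, plus strand: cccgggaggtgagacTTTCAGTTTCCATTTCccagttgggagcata

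Members with the core in their window and members without it overlapped widely in their ratio between the libraries. The 14 measured members with a match had a median log2 ratio (NK-depleted over control) of -0.58, from -1.36 to -0.10. The 22 without a match had a median of -0.40, from -1.53 to 0.04. A match describes letters in a window only, and a window without one says nothing about the factor.

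The first question was whether interferon-induced genes stood at the same level in CD8+ T cells of control and antibody-treated mice. Most stood lower in the NK-depleted library over all cells, and the gap was smaller without the Gzmk and Itga4 cluster described later. A gene is called lower here at a ratio of 0.8 or below and higher at 25% or more above the group it is compared with, the same step in either direction. Of 44 members with a mean of at least 10 CPM, 34 were called lower, where 11.4% of 7446 genes of that level were, and 0 were called higher, where 5.88% of all genes were. At 1.5-fold, 14 members were lower (background 2.7%) and 0 higher (0.954%). The median log2 ratio was -0.44 over the members and -0.06 over all genes measured. Without cells with a UMI of Siglech, Klk1 or Cox6a2, 34 members were called lower (background 11.3%) and the median was -0.45. Leaving out cells with any marker of another cell type took away 3304 control and 3514 NK-depleted cells (47.9% and 43.0%). In the rest, 36 members were called lower (background 13.5%) and the median was -0.50. The Gzmk and Itga4 cluster held 27.4% of control and 1.56% of NK-depleted cells. Without it, 10 members were called lower (background 7.46%) and the median was -0.20. With every cluster given the same weight in both libraries, 6 were (background 3.82%), with a median of -0.17. Summed over the members in the whole population, the level was 12998 CPM (control) and 10036 CPM (NK-depleted), with a ratio of 0.772 (95% interval 0.770 to 0.774). Ifi27l2a, a gene for a small protein of unsettled function, supplied 27.6% and 31.7% of these UMIs. Without it the sums were 9415 and 6859 CPM.

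**Figure D1:**
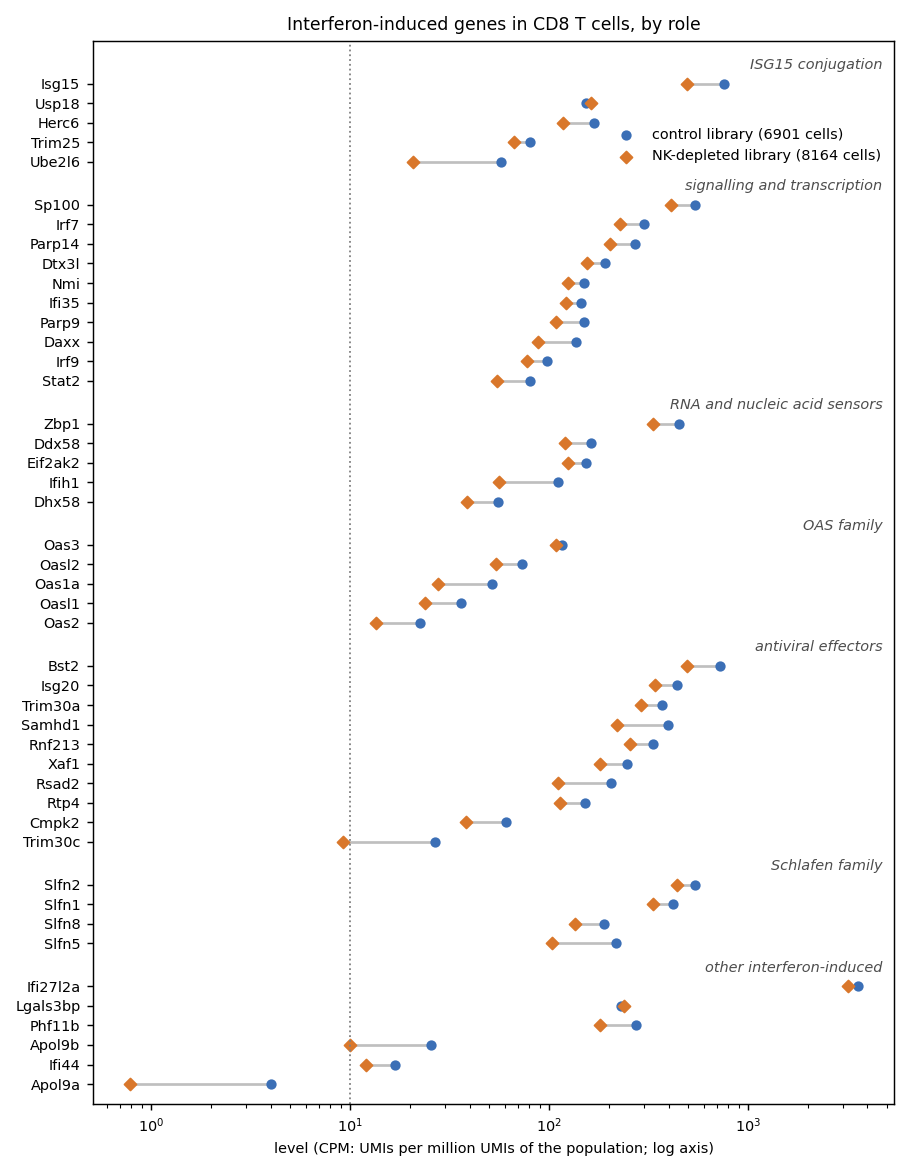
Level of each of the 45 members in the control library (circles) and the NK-depleted library (diamonds), in CPM on a log axis, grouped by role; the dotted line marks 10 CPM. In all but Usp18 and Lgals3bp the diamond lies to the left of the circle.

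The scale on which libraries are compared moves these counts but not their direction. With edgeR's TMM factors the median of all genes moved from -0.06 to 0.02, the all-gene split from 11.4% lower and 5.88% higher to 6.69% lower and 10.3% higher, and 27 members were called lower with 0 higher. With median-of-ratios factors the all-gene median was 0.04, the split 6.30% and 11.1%, and 26 members were lower with 0 higher.

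The genes of Isg15 conjugation diverged most among themselves. Isg15, the ubiquitin-like modifier attached to other proteins, stood at 757 CPM (control) and 496 CPM (NK-depleted), with a ratio of 0.655 (0.648 to 0.662). Ube2l6, the conjugating enzyme that hands Isg15 on, stood at 57.6 and 20.7 CPM, a ratio of 0.359 (0.343 to 0.376). Herc6, the ligase thought to complete the transfer in mice, stood at 170 and 119 CPM, and Trim25, a ligase that acts on the RNA sensor Ddx58, at 80.3 and 67.1 CPM. Usp18, the protease that removes Isg15 from its targets and also blocks the interferon receptor, went the other way, with 154 CPM (control) and 163 CPM (NK-depleted). Its ratio was 1.06 (1.04 to 1.08), a log2 ratio of 0.08, against 2.78-fold higher in the control for the conjugating enzyme. Under TMM and median-of-ratios factors Usp18 stood at log2 ratios of 0.17 and 0.18, with cells thinned to 5000 UMIs at 0.01, and as a mean over cells it turned to -0.03. Its distance from the members' median was over 0.5 on the log2 scale.

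Signalling and transcription members were lower by smaller steps, 7 of 10 called lower (all genes 11.4%) with a median log2 ratio of -0.40. Without the Gzmk and Itga4 cluster described later, only Daxx of them was called lower (all genes 7.46%). Irf7, the factor that amplifies interferon production and response, stood at 302 CPM (control) and 229 CPM (NK-depleted), with a ratio of 0.758 (0.746 to 0.770). Stat2 and Irf9, parts of ISGF3, stood at 80.4 and 54.8 CPM and at 98.4 and 78.0 CPM. Daxx, a chaperone of histone H3.3, had the lowest ratio of this group, with 136 and 88.7 CPM. Sp100, with Daxx a component of nuclear bodies, stood at 541 and 411 CPM. The poly(ADP-ribose) polymerase family members Parp9 and Parp14 stood at 151 and 109 CPM and at 272 and 203 CPM, and Dtx3l, the ligase that pairs with Parp9, at 192 and 156 CPM. Nmi and its partner Ifi35 stood at 150 and 125 CPM and at 145 and 122 CPM, which with Dtx3l are the 3 members of this group not called.

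Of the sensors of foreign nucleic acid, 4 of 5 were called lower (all genes 11.4%). Without the Gzmk and Itga4 cluster described later, only Ifih1 of them was (all genes 7.46%). Ifih1 (MDA5), which senses long double-stranded RNA, was the farthest, with 111 CPM (control) and 56.5 CPM (NK-depleted), with a ratio of 0.509 (0.495 to 0.525). Ddx58 (RIG-I), the sensor of RNA with a 5'-triphosphate, stood at 163 and 120 CPM, and their regulator Dhx58 (LGP2) at 55.3 and 39.0 CPM. Zbp1, which binds Z-form nucleic acid and can start necroptosis, stood at 454 and 334 CPM. Eif2ak2 (PKR), the kinase that stops translation when it binds double-stranded RNA, stood at 154 and 125 CPM and was not called.

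The OAS family makes the second messenger that switches on RNase L or, for the Oasl genes, is related to the enzymes that do. It had 4 of 5 members called lower (all genes 11.4%). Without the Gzmk and Itga4 cluster described later, only Oas1a of them was (all genes 7.46%), and the log2 ratio of Oasl2 turned from -0.44 to 0.06. Oas1a stood at 51.9 CPM (control) and 27.9 CPM (NK-depleted), with a ratio of 0.538 (0.515 to 0.561). Oas3 stood at 116 and 108 CPM and was not called, although both genes lie on chromosome 5 within the same cluster as Oas2. Oasl2 stood at 73.7 and 54.1 CPM. Oas2 and Oasl1 were lower as well, with log2 ratios of -0.74 and -0.61.

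All 10 measured antiviral effectors were called lower (all genes 11.4%). Without the Gzmk and Itga4 cluster described later, only Rsad2, Samhd1 and Trim30c of them were (all genes 7.46%). Rsad2 (viperin), which makes a chain-terminating nucleotide, stood at 204 CPM (control) and 111 CPM (NK-depleted), with a ratio of 0.544 (0.533 to 0.556). Its neighbour on chromosome 12, Cmpk2, which supplies the nucleotide that Rsad2 converts, had a log2 ratio of -0.67. Samhd1, the enzyme that degrades deoxynucleotides, stood at 396 and 221 CPM, a ratio of 0.559 (0.550 to 0.567). Over all cells, Rsad2 and Samhd1 thus stood farther apart between the libraries than Bst2 (tetherin), which holds budding virus at the membrane, at 726 and 496 CPM. Without the Gzmk and Itga4 cluster the log2 ratios were -0.38 (Rsad2), -0.63 (Samhd1) and -0.24 (Bst2). This order did not hold when every cluster was given the same weight in both libraries. Bst2 was then called lower, and Rsad2 and Samhd1 were not. Isg20, an exonuclease, stood at 443 and 343 CPM, Rnf213, a giant ubiquitin ligase, at 333 and 255 CPM, and Xaf1, a partner of the apoptosis inhibitor Xiap, at 247 and 182 CPM. Rtp4 stood at 152 and 114 CPM. The neighbours Trim30a and Trim30c on chromosome 7 differed: Trim30a stood at 371 and 290 CPM, and Trim30c at 26.7 and 9.24 CPM, a ratio of 0.346 (0.323 to 0.370). Trim30c has close relatives beside it, so its counts are uncertain.

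The Schlafen genes, growth-regulatory genes of T cells and myeloid cells, lie together on chromosome 11. Slfn5 stood at 218 CPM (control) and 104 CPM (NK-depleted), with a ratio of 0.478 (0.468 to 0.488). Slfn8 stood at 190 and 136 CPM, Slfn1 at 421 and 333 CPM and Slfn2, whose loss is known to break T cell quiescence, at 546 and 441 CPM. Slfn5 was therefore more than 0.5 below the members' median on the log2 scale, while Slfn2 was not called.

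Of the remaining members, Lgals3bp, a secreted glycoprotein gene, stood at 232 CPM (control) and 238 CPM (NK-depleted), with a ratio of 1.03 (1.01 to 1.04). Its log2 ratio of 0.04 turned to -0.07 with cells thinned to 5000 UMIs and to -0.06 as a mean over cells. Ifi27l2a stood at 3583 and 3177 CPM, a ratio of 0.887 (0.883 to 0.891). Phf11b stood at 276 and 180 CPM, and Ifi44 had a log2 ratio of -0.49. Apol9b stood at 25.7 and 10.1 CPM, and its copy Apol9a, below 10 CPM, at 4.04 and 0.782 CPM. Oas1a, Phf11b, Trim30a and Ifi27l2a also have close relatives in the genome, so their counts are uncertain too. With these and Trim30c and the Apol9 pair left out, 29 of 38 members were called lower (all genes 11.4%). Below the median by more than 0.5 on the log2 scale stood 5 members: Ube2l6, Ifih1, Trim30c, Slfn5 and Apol9b.

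**Figure D2:**
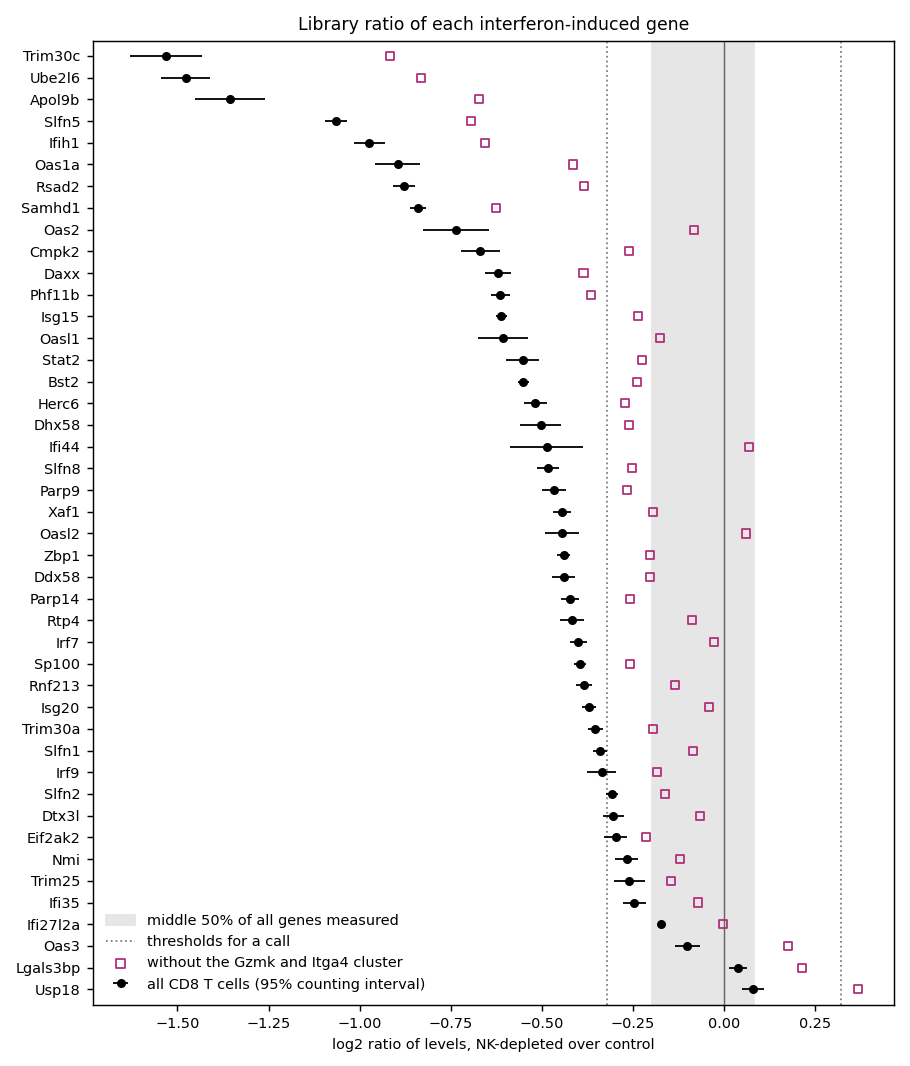
Log2 ratio of levels, NK-depleted over control, for the 44 members of at least 10 CPM, over all CD8 T cells (filled, with 95% counting intervals) and without the cells of the Gzmk and Itga4 cluster described in the text (open squares); the grey band holds the middle 50% of all genes and dotted lines mark the thresholds. Without that cluster, 10 members stay past the lower line and Usp18 passes the upper one (all genes 7.46% and 3.95%).

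The chain upstream of these genes was less apart than the genes themselves. Of 22 measured genes for receptors, signal carriers, regulatory factors, brakes and sensor adaptors, 6 were called lower and 0 higher (all genes 11.4% and 5.88%). They were both receptor chains, Ifnar1 at 98.6 and 76.8 CPM and Ifnar2 at 53.2 and 42.3 CPM, the kinase Jak2 at 68.7 and 42.5 CPM, which serves the interferon gamma receptor, the factors Irf1 at 148 and 113 CPM and Irf2 at 174 and 131 CPM, and the brake Socs3 at 51.8 and 37.2 CPM. Jak1 and Tyk2, the kinases of the type I receptor, stood at 374 and 348 CPM and at 27.5 and 23.7 CPM. Socs1, the other brake, stood at 130 and 114 CPM. The interferons were all but unseen: the 17 type I and type III genes had 3 UMIs together in each library, and 13 had none in either, where 3 UMIs equal 0.0282 CPM (control) and 0.0239 CPM (NK-depleted).

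The next question was whether the difference depended on the state of the T cell. Cells were thinned to 5000 UMIs, which left out 520 control and 641 NK-depleted cells, and divided by whether they had a UMI of Pdcd1 (the inhibitory receptor PD-1), Tcf7 (a factor of stem-like T cells), Havcr2 (TIM-3, a receptor of terminally exhausted cells) or Mki67 (a gene of dividing cells). A cell without a UMI may still express the gene. Levels were then taken from all UMIs of the cells in each division.

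Cells with Havcr2 stood out, but the contrast was smaller without the Gzmk and Itga4 cluster described later. Among cells without it, 37 of 44 members were called lower in the NK-depleted library (background 15.1%), with a median log2 ratio of -0.51. Among cells with it, 8 of 41 were (background 7.13%), with a median of -0.24. Isg15 stood at 883 and 542 CPM in control and NK-depleted cells without Havcr2, and at 488 and 411 CPM in cells with it. The summed level was 14189 and 10361 CPM in cells without Havcr2 and 10293 and 9349 CPM in cells with it, so the control cells without Havcr2 were the high ones. Without the Gzmk and Itga4 cluster, 11 of 44 members were lower in cells without Havcr2 (background 9.64%, median -0.23). In cells with Havcr2, 6 of 41 were then lower (background 6.85%, median -0.17). No test of the difference between these ratios was possible with 1 library per group.

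Within a library the same division can be read. In the control, 37 of 44 members were called lower in cells with Havcr2 than in cells without (background 9.44%) and 0 were higher (9.53%), with a median log2 ratio of -0.58. In the NK-depleted library 15 of 43 were lower (5.56%) and 0 higher (9.28%), with a median of -0.24. Some members kept a wide gap in both libraries. Oasl2 stood at 32.5 CPM with and 91.8 CPM without Havcr2 in the control, and at 26.7 and 69.6 CPM in the NK-depleted library. Oas2 had log2 ratios of -1.30 and -1.14, and Ifi44 of -1.28 and -1.20. Rsad2 narrowed instead, from -1.21 in the control to -0.57 in the NK-depleted library, and Ube2l6 from -1.01 to -0.24. Cells with Havcr2 were deeper, at a median of 16651 against 10906 UMIs in the control and 15339 against 12211 in the NK-depleted library, and the part of depth in these ratios was not tested.

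Dividing cells carried less of these transcripts in both libraries, but in the control the count rested on the Gzmk and Itga4 cluster described later. Cells with Mki67 against cells without had 26 of 44 members lower in the control (background 10.1%) and 13 of 43 in the NK-depleted library (7.49%), with 0 higher in either (17% and 18.7% of all genes). The medians were -0.37 and -0.24. Without that cluster the control count fell to 4 of 44 lower, a share near the background of 8.2%, with a median of -0.14. In the control 1 member was then higher, for which the share of all genes was not taken. The NK-depleted library kept 13 of 42 lower (7.42%). Slfn5 had the widest gap among members of at least 50 CPM, at 102 CPM with and 270 CPM without Mki67 in the control and at 55.0 and 138 CPM in the NK-depleted library. Between libraries, 25 of 43 members were lower in cells with Mki67 (background 8.84%, median -0.34) and 34 of 44 in cells without (13.9%, median -0.46).

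With status read after thinning, Pdcd1 and Tcf7 divided the members less than Havcr2 and Mki67 did, by their medians. For cells with over without Pdcd1 these were -0.11 (control) and -0.04 (NK-depleted). With status read from all UMIs, the Pdcd1 medians lay farther below 0, as given in the closing part on processing. Cells with Pdcd1 against cells without had 6 of 44 members lower (3.7%) and 0 higher (4.28%) in the control, and 4 of 43 lower (3.85%) and 1 higher (6.78%) in the NK-depleted library. For Tcf7, 5 of 44 were lower (18.1%) and 3 higher (10.7%) in the control, and 2 of 43 lower (17.8%) and 7 higher (11%) in the NK-depleted library. The higher ones, below (control) or near (NK-depleted) the share of all genes in number, included Trim30c and Slfn5. Trim30c, whose counts are uncertain, stood at 39.2 CPM with and 22.6 CPM without Tcf7 in the control. Under the antibody it stood at 21.0 and 6.22 CPM. Slfn5 stood at 256 and 202 CPM in the control and at 136 and 93.1 CPM under the antibody. Between libraries, 32 of 44 members were lower in cells with Pdcd1 (background 10.5%) and 36 of 44 without (14%). For Tcf7 the counts were 20 of 44 with (11.1%) and 35 of 44 without (12.3%), with medians of -0.30 and -0.48. No member was called higher in any of these 8 comparisons between libraries. The share of all genes called higher was not taken for them, so this count has no background beside it.

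Usp18 kept its departure in every division. Its log2 ratio between libraries was above 0 in all 8, from 0.04 in cells without Havcr2 to 0.31 in cells with it. In cells with Havcr2 it stood at 103 CPM (control) and 128 CPM (NK-depleted). Cells without Havcr2 held 178 and 183 CPM.

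**Figure D3:**
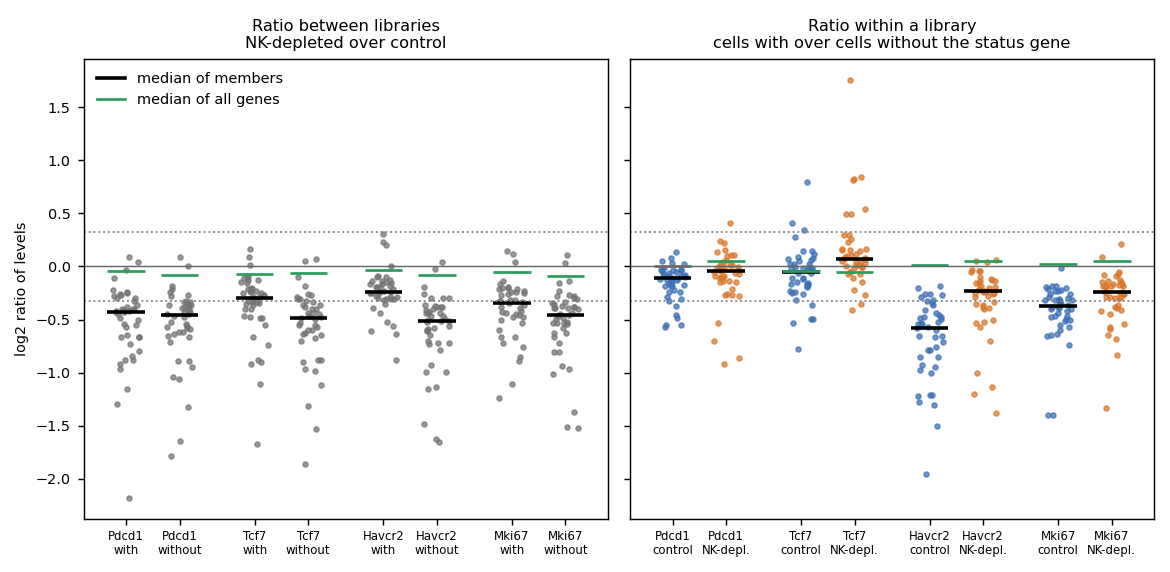
Left, log2 ratio NK-depleted over control of each measured member (points) in cells with and without a UMI of Pdcd1, Tcf7, Havcr2 or Mki67; right, log2 ratio of cells with over cells without the gene, inside the control and the NK-depleted library. Black bars are medians of members, green bars medians of all genes and dotted lines the thresholds; the left medians run from -0.51 to -0.24, lowest in cells without Havcr2 and highest in cells with it.

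The levels were also read by cluster. Cells of both libraries were clustered without the members, the listed genes of the other interferon families, receptor segments and other left-out genes. The grouping did not use the genes described, but related genes outside the lists took part, such as Gbp10 and Gm12185 of the interferon-inducible GTPases. A cluster led by Actn2, Car2, Cdh1, Gzmk, Gm12185, Gbp10, Itga4 and Osgin1 held 1892 control cells, 27.4% of that library, and 127 NK-depleted cells, 1.56%. It is called here the Gzmk and Itga4 cluster. With 1 library per group, a cluster drawn mostly from 1 library may be that library rather than a kind of cell.

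Members stood highest in that cluster in both libraries. It had the highest level of 42 of 45 members in the control and of 43 in the NK-depleted library among clusters of 100 or more cells in that library. The summed level was 24338 CPM in its control cells and 23995 CPM in its NK-depleted cells, against 10942 and 9944 CPM in all other cells. Isg15 stood at 1773 and 1918 CPM in the cluster and at 573 and 486 CPM outside it. Rsad2 stood at 562 and 750 CPM inside and at 140 and 107 CPM outside. Havcr2 stood at 14.2 and 58.6 CPM inside against 156 and 140 CPM outside, and Mki67 at 38.7 and 33.0 against 311 and 374 CPM. Its cells were shallow, with a median of 7991.5 and 5972 UMIs, and the part of depth in its levels was not tested.

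**Figure D4:**
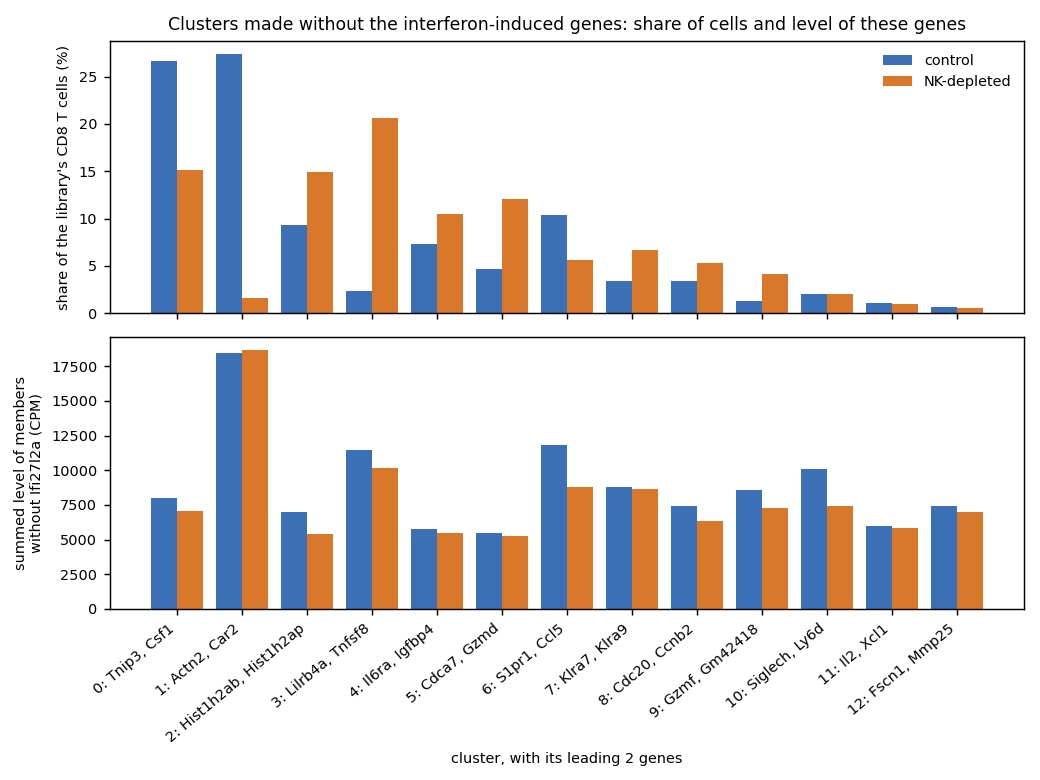
Share of each library's CD8 T cells (top, %) and summed level of the members without Ifi27l2a (bottom, CPM) in 13 clusters made without these genes, for the control and NK-depleted libraries, 1 library each. Cluster 1, the Gzmk and Itga4 cluster, holds 27.4% of control and 1.56% of NK-depleted cells and has the tallest bars below in both libraries.

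Outside the Gzmk and Itga4 cluster the libraries were closer. Over the remaining 5009 control and 8037 NK-depleted cells, 10 of 44 members were called lower (background 7.46%), and the median log2 ratio was -0.20. The 1 member called higher was Usp18 (background 3.95%), a count not above the share of all genes. The 10 called lower were Ube2l6, Daxx, Ifih1, Oas1a, Rsad2, Samhd1, Trim30c, Slfn5, Phf11b and Apol9b. Samhd1 stood at 336 and 218 CPM and Slfn5 at 163 and 101 CPM. In these cells Usp18 stood at 125 CPM (control) and 161 CPM (NK-depleted), a log2 ratio of 0.37. Lgals3bp stood at 204 and 237 CPM and Irf7 at 230 and 226 CPM. In 3 members the log2 ratio turned from below to above 0, from -0.10 to 0.17 in Oas3, from -0.44 to 0.06 in Oasl2 and from -0.49 to 0.07 in Ifi44. A clustering that also left out 142 further interferon-related gene names gave a like cluster of 2108 cells, of which 1981 were among the 2019 cells of this one. Without that like cluster, 10 members were lower (background 7.47%) and Usp18 was higher (background 3.91%).

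The cluster was unevenly divided by Havcr2. Of control cells without Havcr2, 33.3% lay in the Gzmk and Itga4 cluster, against 5.46% of those with it, and in the NK-depleted library the shares were 1.45% and 0.686%. With the cluster left out, 11 of 44 members were lower in the NK-depleted library among cells without Havcr2 (background 9.64%, median -0.23) and 6 of 41 among cells with it (background 6.85%, median -0.17). Within the control, 20 of 44 members, in place of 37, were then lower in cells with Havcr2 than without (background 6.53%), with a median of -0.30, and within the NK-depleted library 15 of 42 were (background 5.55%), with a median of -0.23.

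Another cluster had shares that ran the opposite way. The cluster led by Lilrb4a, Tnfsf8 and Ccr2 held 2.32% of control and 20.6% of NK-depleted cells, and its members without Ifi27l2a summed to 11434 and 10136 CPM. With both clusters left out, 23 of 44 members were lower (background 8.64%), with a median of -0.33. When every cluster was given the same weight in both libraries, 6 members were lower (background 3.82%): Ube2l6, Ifih1, Oas1a, Bst2, Ifi44 and Apol9b, with a median of -0.17.

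Inside single clusters the medians of the members were below 0, as were those of all genes. Over the 10 clusters that had 100 or more cells per library, the members' medians ran from -0.44 to -0.04, with a middle value of -0.19, and the all-gene medians from -0.07 to -0.02. In 4 of them the members stood close to all genes, at -0.05 against -0.05 in the Gzmk and Itga4 cluster and in the cluster led by Ly49 receptor genes, at -0.04 against -0.02 in that led by Il6ra and Igfbp4, and at -0.06 against -0.04 in that led by Cdca7 and Gzmd. The log2 ratio of the summed level was above 0 in 2 clusters, 0.01 in that led by Cdca7 and Gzmd and 0.10 in that led by Ly49 receptor genes. With finer clusters (resolution 2), 11 of 13 medians were below 0, the lowest was -0.71 and the highest was 0.05. Among the 10 clusters above, the lowest median was in that led by S1pr1, Ccl5 and Klf3. There, 35 of 43 members were called lower (background 14.8%) and the sum without Ifi27l2a was 11851 CPM (control) and 8783 CPM (NK-depleted). The highest of the 10 medians was in the cluster led by Il6ra and Igfbp4, with 3 of 41 called lower (background 6.2%) and sums of 5756 and 5495 CPM. Usp18 was above 0 in 8 of the 10 clusters. It was below 0 in the cluster led by S1pr1, Ccl5 and Klf3 (-0.09) and in that led by Siglech and Ly6d (-0.37). The Siglech cluster, also led by Cox6a2, has plasmacytoid dendritic cell markers. It held 143 control and 161 NK-depleted cells (2.07% and 1.97%), at a median of 1536 and 1373 UMIs. Samhd1 stood lower in the NK-depleted cells of each of the 10 clusters, such as 387 and 341 CPM in the cluster led by Ly49 receptor genes, except the Gzmk and Itga4 cluster, where it stood at 729 and 809 CPM.

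The members were also set against each other across single cells. In each library, cells were ranked for each member by the summed level of the other members without Ifi27l2a, cut into 3 groups of equal size (terciles), and the member's level in the top tercile was divided by its level in the bottom tercile. All 44 measured members were called higher at the top in both libraries, where 23.6% (control) and 16.8% (NK-depleted) of all genes were. The fold had a median of 5.74 in the control, from 2.33 for Sp100 to 50.1 for Trim30c, and of 4.17 in the NK-depleted library, from 1.87 for Irf9 to 20.2 for Rsad2. Top cells were shallower, at a median of 8637 against 14335.5 UMIs for Isg15 in the control, which touches these folds and was not tested. In the control Rsad2 stood at 20.1 CPM in the bottom and 618 CPM in the top cells, while Slfn2 stood at 364 and 891 CPM. Usp18, which departed between libraries, followed the other members across cells, with folds of 8.30 in the control and 5.94 in the NK-depleted library. Ifi27l2a followed less, with 2.43 and 2.33, and Lgals3bp with 3.02 and 2.52.

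**Figure D5:**
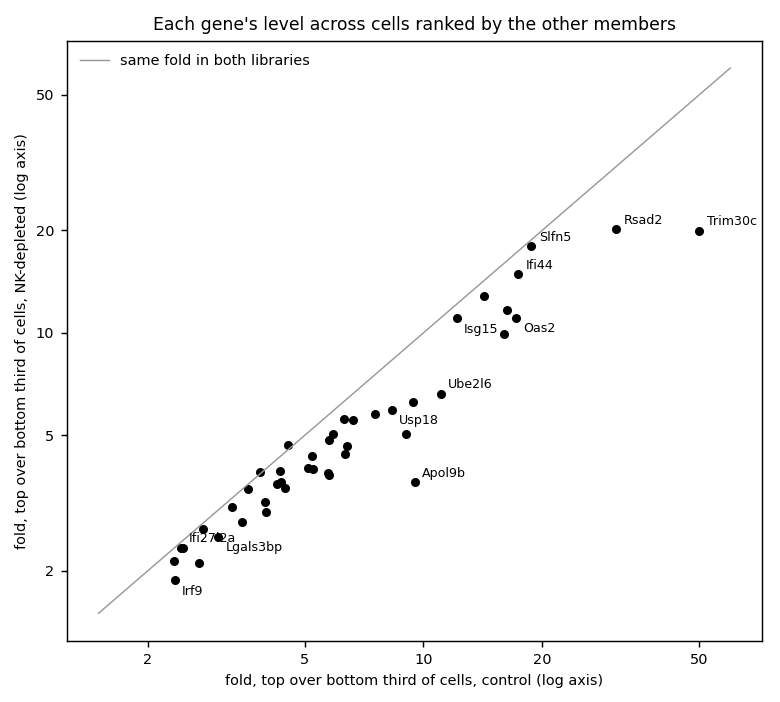
Fold of each measured member between the top and bottom tercile of cells ranked by the other members, control on the x axis and NK-depleted on the y axis, both log axes; the line marks the same fold in both. Every point lies above 1, with Trim30c and Rsad2 at the far end and Sp100 and Irf9 at the near end.

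Spread over cells was wide in both libraries. Without Ifi27l2a, the members had a median of 91.6 UMIs per 10000 in control cells, from 28.6 at the 10th to 231 at the 90th percentile, and of 62.5 in NK-depleted cells, from 24.7 to 150. The lower ends were closer together than the upper ends. In cells thinned to 5000 UMIs, a median of 22 members in the control and 18 in the NK-depleted library had a UMI. The 638 and 752 thinned cells with most of these UMIs, 10% of each library, held 26.8% and 25.6% of them.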

How the data were processed

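The authors deposited raw UMI counts for every gene in every barcode. Per the file headers, Cell Ranger 6.1.2 produced them, and mm10 and Seurat 4.0.6 are named in the submitters' processing notes. UMIs were summed over the population of each library and divided by its total, as CPM. Ratios carry exact conditional binomial 95% intervals. The interval was run on simulated counts that hold counting error alone, which it assumes, so that run checks its computation only. It cannot speak to spread between cells, mice or libraries. The members and lists were chosen with earlier results of these data known. Named genes are members with a mean of at least 50 CPM and those with a log2 ratio of 0 or more or over 0.5 from the members' median; pathway genes are the receptors, signal carriers and up to 4 per list with the largest difference; a few others chosen after their values were seen (Oas2, Oasl1, Ifi44, Cmpk2, Oas1a, Dhx58 and Apol9a) are examples. No doublet caller was run; values without the 8% of cells with most UMIs stand in its place. Members, the listed genes of other interferon families (not Gbp10 or Gm12185), receptor segments and mitochondrial, ribosomal and sex-linked genes took no part in the clustering, which used 2000 variable genes, 30 principal components, 15 neighbours and Leiden at resolution 1 (scanpy 1.11.5, leidenalg 0.10.2), with no integration. Alternatives changed scaling (edgeR 4.0.16), filters, thinning and cells included. Those on clusters, shared barcodes and plasmacytoid markers were chosen after seeing the data. Genes on the chromosomes named were placed with GENCODE vM21 (GRCm38). Some values are not reported here.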

Additional observations from a re-analysis of the deposited data

How the results depend on the processing

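The direction of the list between the libraries held under every setting run, and its size did not. The median log2 ratio of the members, -0.44 as reported, was -0.36 with TMM factors, -0.35 with median-of-ratios factors, -0.54 as a mean over cells, -0.52 with cells thinned to 5000 UMIs and -0.50 without cells with a marker of another type. It was -0.20 without the Gzmk and Itga4 cluster (-0.20 from the clustering without further interferon genes), -0.33 without the Tnfsf8 cluster as well and -0.17 with clusters weighted alike. The log2 ratio of the summed level, -0.37 as reported, was in the same order -0.29, -0.27, -0.46, -0.45, -0.41, -0.14, -0.14, -0.25 and -0.10. It was -0.36 with a mitochondrial share under 5%, -0.41 without the 8% of cells with most UMIs, -0.38 without cells with Mki67 or Top2a, -0.39 without shared barcodes and -0.45 without members with near copies. The 34 members called lower (background 11.4%) became 14 at 1.5-fold (2.7%), 10 without the Gzmk and Itga4 cluster in either clustering (7.46% and 7.47%) and 6 with clusters weighted alike (3.82%). Usp18 was the 1 member called higher without that cluster (background 3.95% and 3.91%), and 0 were in the other settings. Without that cluster 3 members turned sign, Oasl2 to 0.0594 (0.0585 in the other clustering), Ifi44 to 0.07 and Oas3 to 0.17; with clusters weighted alike, Rsad2 turned to 0.00071 and Slfn1 to 0.0131. With status read from all UMIs, the medians of cells with over without were -0.27 (Pdcd1, control), -0.23 (Pdcd1, NK-depleted), -0.72 (Havcr2, control) and -0.33 (Mki67, NK-depleted), and between libraries -0.48 (with Pdcd1), -0.52 (without Tcf7) and -0.58 (without Havcr2). Without the 8% of cells with most UMIs they were -0.17 (Tcf7, control), -0.66 (Havcr2, control), -0.20 (Mki67, control) and -0.18 (Mki67, NK-depleted), and between libraries -0.49 (with Pdcd1), -0.54 (without Tcf7) and -0.46 (with Mki67). Without the Gzmk and Itga4 cluster they were 0.0822 (Tcf7, control, reversed from -0.05), -0.30 (Havcr2, control) and -0.14 (Mki67, control), and between libraries -0.22 and -0.22 (with and without Pdcd1), -0.15 and -0.22 (with and without Tcf7), -0.23 (without Havcr2) and -0.25 and -0.16 (with and without Mki67). The causes were not tested. No paired analysis was possible because each group is 1 library.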

Other observations

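The interferon-induced families set aside from these 46 genes gave a mixed picture on the same scale. For comparison, 11.4% of the 7446 genes of at least 10 CPM were called lower and 5.88% higher, and the all-gene median was -0.06. No values without the Gzmk and Itga4 cluster are given for these families, and the part of that cluster in their ratios was not tested. All 5 measured Ifit genes, which bind viral RNA and hold back its translation, were called lower in the NK-depleted library, with a median log2 ratio of -0.998, and Ifit3 stood at 495 CPM (control) and 246 CPM (NK-depleted). All 14 interferon-inducible GTPases were lower as well, with a median of -0.62; Iigp1 stood at 115 and 43.9 CPM. The 9 measured Ifi200 genes, sensors of DNA, were lower with a median of -0.49. The Ifitm genes, which block the fusion of viruses with membranes, went the other way: Ifitm1 stood at 477 and 934 CPM, Ifitm2 at 184 and 561 CPM and Ifitm3 at 283 and 513 CPM, and Ifitm10 at 17.9 and 17.0 CPM.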
